A study of Homo sapiens with 3 samples.

Results

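PTGDS-high melanocytes on day 32 are the cells of the day 32 library of induced melanocytes that carried the most PTGDS RNA. Cells were kept when mitochondrial genes made up less than 10% of their unique molecular identifiers (UMIs, each standing for 1 captured RNA molecule), when they held 3000 to 9000 genes and fewer than 100000 UMIs, and when PMEL, MLANA, DCT and TYRP1, 4 genes of pigment cells, reached 10 UMIs per 10000 together. Of 8927 barcodes in the library, 6023 passed the limits on genes, UMIs and mitochondrial share, and 5618 of these (93.3%) also passed the pigment limit. The 562 kept cells in the top 10% by PTGDS UMIs per 10000 formed the PTGDS-high group, and the 2753 kept cells without a PTGDS UMI formed the PTGDS-low group. The other 2303 kept cells lay between them. Measured PTGDS and pigment values thus chose the cells, so the level of PTGDS and of those 4 pigment genes is description only.

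The study took 1 droplet library each on day 23, day 32 and day 44 of differentiation (D23, D32 and D44), 22522 barcodes in all. Pluripotent cells had been grown as embryoid bodies and moved to a melanocyte medium with Wnt3a-conditioned medium, SCF, endothelin-3, dexamethasone, cholera toxin, TPA and bFGF, later with 0.5% FBS and no TPA, and the cells were frozen before libraries were made. All 3 libraries shared this course, and none was an untreated control. The labels conflict on the starting cells, since titles name induced pluripotent stem cells and the cell line field names the embryonic stem cell line H9, so that libraries were matched by day only. D32 and D44 came from 1 induction and 1 sequencing batch and D23 from another, and no day had a second culture. A difference between D23 and the later days therefore cannot be told apart from the induction or the batch.

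PTGDS encodes lipocalin-type prostaglandin D synthase, a secreted protein that makes prostaglandin D2 from prostaglandin H2 and also carries small lipophilic molecules such as retinoids and bilirubin. Melanocytes are pigment cells of the neural crest. They build melanin inside melanosomes with the enzymes TYR, TYRP1 and DCT on fibrils of PMEL, under the transcription factor MITF, and pass melanosomes to keratinocytes in skin. MITF binds E-boxes, and the longer M-box is the form known from promoters of pigment enzymes.

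The RefSeq promoter windows of 4 genes are shown because the PTGDS-high cells were chosen by the first, NMRK2 is a marker given with the group, and TSPAN10 and TYR are pigment genes whose windows held an M-box. Each window runs 5′ to 3′ on the plus strand of GRCh38.p14, from 250 bases before the start that RefSeq gives the gene to 50 after it. Gene positions printed elsewhere are the full spans of the GENCODE annotation, which for PTGDS, NMRK2 and TSPAN10 begin upstream of the RefSeq start. Capitals mark the M-box core TCATGTG, its reverse complement CACATGA, and the E-box CATGTG, which lies inside the M-box core. The windows lie at chr9:136977254-136977553 (PTGDS), chr19:3933339-3933638 (NMRK2), chr17:81642055-81642354 (TSPAN10) and chr11:89177625-89177924 (TYR).
PTGDS: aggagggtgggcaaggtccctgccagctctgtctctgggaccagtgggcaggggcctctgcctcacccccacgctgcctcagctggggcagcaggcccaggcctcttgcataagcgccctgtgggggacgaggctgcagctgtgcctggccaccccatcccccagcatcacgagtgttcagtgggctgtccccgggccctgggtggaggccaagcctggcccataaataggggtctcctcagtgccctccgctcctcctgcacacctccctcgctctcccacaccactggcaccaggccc
NMRK2: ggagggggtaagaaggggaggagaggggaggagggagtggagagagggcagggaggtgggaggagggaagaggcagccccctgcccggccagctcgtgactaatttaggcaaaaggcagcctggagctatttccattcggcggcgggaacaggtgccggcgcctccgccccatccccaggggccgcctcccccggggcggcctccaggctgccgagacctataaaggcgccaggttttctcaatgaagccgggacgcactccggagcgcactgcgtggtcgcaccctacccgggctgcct
TSPAN10: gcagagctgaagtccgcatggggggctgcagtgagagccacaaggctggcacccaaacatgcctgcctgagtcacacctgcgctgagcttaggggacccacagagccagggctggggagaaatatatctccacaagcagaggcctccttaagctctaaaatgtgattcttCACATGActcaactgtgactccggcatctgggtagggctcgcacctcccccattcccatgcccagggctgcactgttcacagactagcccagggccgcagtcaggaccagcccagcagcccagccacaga
TYR: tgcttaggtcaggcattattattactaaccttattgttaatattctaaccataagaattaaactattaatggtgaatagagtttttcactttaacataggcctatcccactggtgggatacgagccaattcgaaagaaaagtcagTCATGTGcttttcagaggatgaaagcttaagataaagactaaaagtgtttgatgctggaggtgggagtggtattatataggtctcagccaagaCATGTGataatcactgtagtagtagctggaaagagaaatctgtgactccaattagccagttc
The TYR window held an M-box core 105 bases before the start and a further CATGTG 12 bases before it, and the TSPAN10 window held the reverse complement 80 bases before the start. The windows of PTGDS and NMRK2 held none of the searched letters, including the E-box CACGTG, which says only that these letters are not in these 300 bases.

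Searched on both strands, the M-box core stood in 817 of 27305 windows of the table (2.99%), and in 86 of the 4863 windows of genes measured in D32 (1.77%). It stood in 4 of 58 windows of the genes higher in PTGDS-high cells by the size rule given further down (6.90%) and in 3 of 113 windows of those lower (2.65%). CATGTG, counted also inside the M-box core, stood in 7 of those 58 windows (12.1%) and in 6.35% of the windows of measured genes. The 7 include the 4 with the M-box core. CACGTG stood in 10.3% of the higher genes' windows and in 11.5% of the measured genes'. These are counts of letters and not of bound sites.

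The chosen cells carried a median of 22 PTGDS UMIs, from 5 to 417. Per 10000 UMIs the level ran from 3.40 over a median of 5.68 to 57.5. The lowest PTGDS-high cell had 9 PTGDS UMIs of 26472 and the highest cell outside the group had 13 of 38253, so that the border ran through a continuous range, at 3.3998 and 3.3984 per 10000. PTGDS RNA itself (ENSG00000107317, chromosome 9, 136975092 to 136981742, plus strand) stood at 120 CPM (UMIs of the gene per 1000000 UMIs of all genes) over all kept D32 cells. The 405 D32 cells under the pigment limit summed to 62.4 CPM, although at least 3 in 4 of them had no PTGDS UMI and 1 cell held 126. PMEL UMIs were still found in 78.5% of these cells, so they were not without pigment RNA.

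PTGDS was carried by fewer cells in the later library. Over all kept cells it stood at 265 CPM in D23, 120 in D32 and 8.46 in D44, with no PTGDS UMI in 36.7%, 49.0% and 88.5% of the kept cells. The D44 level was close to the 9.34 CPM in the 75 D44 cells under the pigment limit. The same rule gave 249 PTGDS-high and 914 PTGDS-low cells in D23, where the genes limit was 1000 to 7000 and the UMI limit 50000, and 574 and 5077 cells in D44. PTGDS-high cells of D44 had a median of 2 PTGDS UMIs and some had only 1, so this group was cut far less sharply than the one of D32. Barcodes shared between libraries numbered 16 for D23 and D32, 28 for D32 and D44, and 9 for D23 and D44.

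The 10 melanocyte marker genes were all measured in D32, and their summed level was 13395 CPM in PTGDS-high and 9776 in PTGDS-low cells. This sum includes the 4 genes of the pigment limit. Of the 10 genes, 8 stood higher in PTGDS-high cells, and TYRP1 was not among the 8. TYRP1 stood at 1239 CPM in PTGDS-high cells and at 1260 to 1314 CPM in the lower steps of PTGDS rank taken further down. Markers of other cell types were mostly below the minimum of 20 CPM. Of 7 keratinocyte markers only KRT10 was measured, at 262 CPM in both groups, and KRT5, KRT14, KRT15, TP63 and KRT1 were at 0 in PTGDS-high cells. Of 12 mesenchymal markers 1 was measured, with a sum of 206 against 177 in which TAGLN stood at 16.01 against 8.86. The mesenchymal sum was 386 against 448 in D23 and 95.2 against 70.4 in D44. TAGLN was called lower in the test over D23 and D44 given further down (log2 -0.89, edgeR adjusted p = 0.0331). Of 15 neural and neural crest markers 3 were measured, with a sum of 187 against 180 and PAX6 at 0. That neural sum joins NEFL, at 39.0 against 66.9, and CRABP1, at 28.9 against 17.3, which lay past 1.5 in opposite directions. S100B, a marker of glia and Schwann cells that melanocytes also express, stood at 467 against 411 CPM. Pluripotency markers summed to 64.9 against 69.8, and POU5F1 was at 0 in the PTGDS-high cells.

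The groups had similar median depths. The median cell held 35086.5 UMIs and 6002 genes in the PTGDS-high and 35046 UMIs and 6013 genes in the PTGDS-low group, and mitochondrial genes took 5.46% and 5.00%. Called doublets made up 8.72% (49 cells, exact 95% interval 6.52 to 11.4) and 9.59% (264 cells, 8.51 to 10.8). The pigment genes of the limit had a median of 114 against 81.6 UMIs per 10000, and the genes of the cell cycle lists 7.32 against 16.5 for S phase and 16.7 against 25.6 for G2 and M phase. PTGDS-high cells thus differed from PTGDS-low cells in both pigment and cycle RNA, and results within narrower ranges of each are given below.

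Within D32 there was 1 library, so cells were summed to 22238559 UMIs in the PTGDS-high and 104432783 in the PTGDS-low group and compared by size, with no test. Levels are CPM, ratios are PTGDS-high over PTGDS-low, and the exact 95% intervals (Poisson for a level, conditional for a ratio) cover counting error only. A gene was measured at 20 or more CPM in the higher group and counted as higher or lower past a ratio of 1.5. Of 5903 measured genes, 83 were higher (1.41%) and 147 lower (2.49%). The median log2 ratio over all measured genes was -0.05, and 2375 of the 5903 lay above 1. Because cells were chosen on PTGDS in these same cells, nothing is read from these D32 counts themselves.

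The test came from D23 and D44, which played no part in choosing the D32 cells. Cells of both libraries were grouped by the same rule, summed into 4 totals and fitted with edgeR (quasi-likelihood, library as a block, Benjamini-Hochberg adjustment over 14456 genes). The test called 152 genes higher (1.05%) and 301 lower (2.08%) at an adjusted p under 0.05. Of the 83 genes higher in D32, 49 were also called higher, against 1.95% of the 5903 measured genes, and 1, CRABP1, was called lower. These counts leave out PTGDS but not the genes of the pigment limit, which are description only. DCT is among the 83 and the 49, and PMEL, MLANA and DCT are among the 152. Of the 147 lower in D32, 130 were called lower, against 4.20% of the measured genes, and none higher. By ratio alone, the measured genes among the 83 lay on the same side of 1 for 55 of 61 in D23 and for 62 of 62 in D44, with 31 and 11 past 1.5. Those among the 147 did so for 138 of 139 and 144 of 144, with 113 and 44 past 1.5. Most ratios were closer to 1 in D44, where 1 or 2 UMIs of PTGDS placed a cell in its group.

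NMRK2 and SERPINF1, given with the group as its markers, were both higher with PTGDS. NMRK2 (ENSG00000077009, chromosome 19, 3933069 to 3942416) encodes nicotinamide riboside kinase 2, which feeds a salvage route to NAD. Its level was 34.3 CPM in PTGDS-high and 11.5 in PTGDS-low cells of D32, a ratio of 2.98 (2.72 to 3.26). In D23 it was 28.2 against 9.61 and in D44 27.6 against 13.6, and it rose in the test by 1.16 ± 0.13 (log2, SE, 2 libraries) with an edgeR adjusted p of 2.11e-05. PTGDS-high cells thus held more NMRK2 RNA than PTGDS-low cells in every library.

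SERPINF1 (ENSG00000132386, chromosome 17, 1762029 to 1777565) encodes the secreted pigment epithelium-derived factor, an inhibitor of vessel growth. It stood at 486 against 199 CPM in D32, a ratio of 2.44 (2.38 to 2.49). In D23 it stood at 236 against 111 and in D44 at 186 against 116. It rose in the test by 0.86 ± 0.09 with an edgeR adjusted p of 1.78e-05. Both groups held more of it in D32 than in the other libraries.

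RAMP1 had the highest D32 ratio of all measured genes that the naming rule admits. It encodes a receptor activity-modifying protein that, with CALCRL, forms the receptor for the neuropeptide CGRP (ENSG00000132329, chromosome 2, 237858893 to 237912106). PTGDS-high cells held 25.4 and PTGDS-low cells 4.84 CPM, a ratio of 5.24 (4.64 to 5.93). The D23 levels were 10.3 and 1.42 and the D44 levels 7.56 and 2.98, and the gene rose by 1.67 ± 0.26 with an edgeR adjusted p of 0.000455. RAMP1 was low. Once every cell was thinned to 5000 UMIs its fold change of 0.79 no longer passed, with an edgeR adjusted p of 0.688. The groups were chosen again on the thinned counts, with 174 PTGDS-high cells in D44 in place of 574. The part of RAMP1 depth and of the new groups in this change was not tested.

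**Figure D1:**
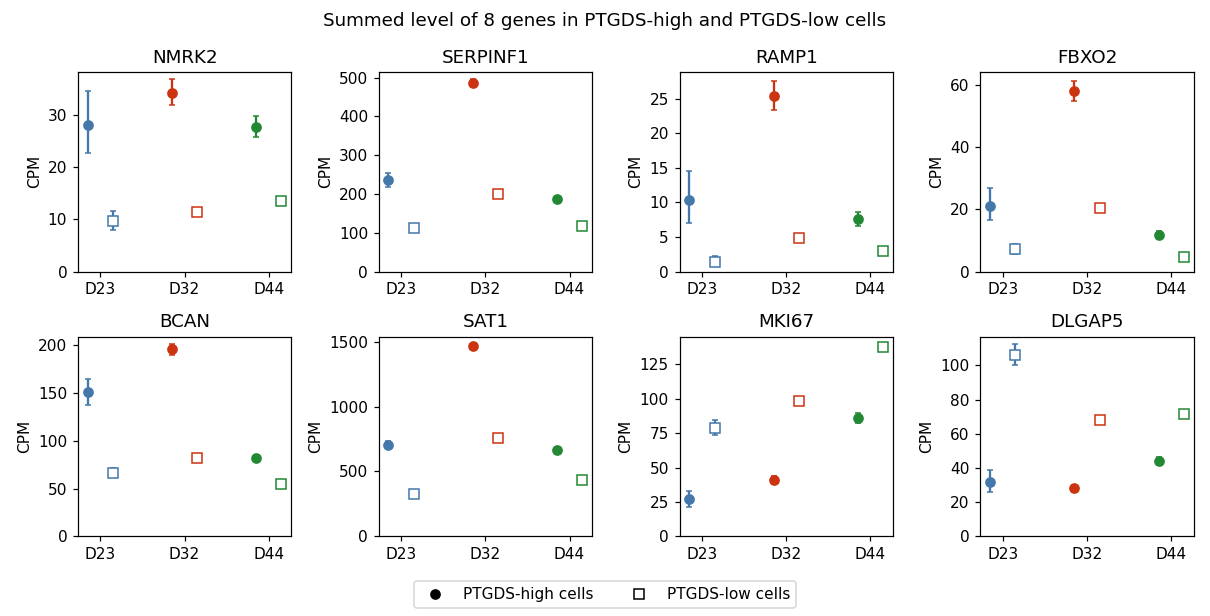
Summed level of 8 genes in CPM on linear axes, in PTGDS-high cells (filled circles) and PTGDS-low cells (open squares) in each of the libraries, with 95% Poisson intervals (exact). In D32 the PTGDS-high level of RAMP1 is 25.4 against 4.84 and that of MKI67 41.1 against 98.5.

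The remaining genes with the highest D32 ratios were mixed in function. FBXO2, which recognises sugar chains on misfolded glycoproteins for a ubiquitin ligase, had a ratio of 2.85 (58.1 against 20.4 CPM). LGI3, a secreted leucine-rich repeat protein, had 2.76 (28.3 against 10.2), and the chemokine CXCL12 had 2.41 (20.3 against 8.43). BCAN, the matrix proteoglycan brevican, had 2.37 (196 against 82.6), TSPAN10, a tetraspanin of pigment cells, 2.35 (85.3 against 36.3) and the calcium-binding S100A1 2.19 (181 against 82.9). All 6 rose in the test over D23 and D44, with log2 fold changes from 0.83 (BCAN) to 1.42 (FBXO2) and edgeR adjusted p-values from 2.77e-05 (FBXO2) to 0.0148 (CXCL12). FBXO2 stood at 21.3 against 7.30 CPM in D23 and at 11.8 against 4.60 in D44, and TSPAN10 at 29.1 against 11.4 and 83.6 against 50.6.

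IGFBP5, a carrier of insulin-like growth factors, had a D32 ratio of 2.16 (178 against 82.4 CPM) and rose by 0.57 ± 0.10 (edgeR adjusted p = 0.00229), although its D23 levels were 121 against 106. SAT1, the enzyme that acetylates spermidine and spermine for breakdown, stood at 1464 against 761, a ratio of 1.92 (1.90 to 1.95). SAT1 was at 705 against 325 in D23 and 668 against 436 in D44 and rose by 0.87 ± 0.10 (edgeR adjusted p = 2.36e-05). The selenium carrier SELENOP (ratio 2.15), the adaptor SHC2 (2.00) and the kinase HIPK2 (1.89) also rose, with edgeR adjusted p-values of 0.0359, 0.0139 and 0.027. TXNIP, an inhibitor of thioredoxin, had a ratio of 1.90 in D32 (21.2 against 11.2) and did not pass (edgeR adjusted p = 0.367). So 14 of the 15 highest genes of D32 passed in the other libraries. CXCL12, SELENOP, SHC2 and HIPK2 no longer passed under DESeq2 (adjusted p from 0.0787 to 0.547) or with cells thinned to 5000 UMIs, S100A1 no longer passed under DESeq2 (adjusted p = 0.391), and IGFBP5 no longer passed with called doublets left out (edgeR adjusted p = 0.105).

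Among the genes called over D23 and D44, the largest fold changes were those of low genes. PLAU, the urokinase protease, stood at 2.83 against 0.823 CPM in D32 and 0.824 against 0.0434 in D44, and held at most 3 UMIs in either D23 group (fold change 4.04 ± 0.53, edgeR adjusted p = 8.99e-05). PLAU UMIs were found in 10 of 562 PTGDS-high cells of D32 (1.78%), 24 of 2753 PTGDS-low cells (0.872%) and 54.3% of cells under the pigment limit, and in 5 of 574, 10 of 5077 and 28.0% in D44. Its value thus rests on a few cells, and it was far more common in cells outside the pigment limit. LCNL1 stood at 5.98 against 0.172 in D32, 15.96 against 0.890 in D23 and 0.786 against 0.0607 in D44 (3.92 ± 0.37, edgeR adjusted p = 9.67e-06). LCNL1 starts 162 bases after the end of PTGDS on the same strand, and whether its reads come from its own transcripts or from PTGDS transcripts read past their end could not be told apart. Its value is therefore uncertain, although the test counted it among the genes called higher.

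The other called genes with the largest fold changes were mixed in function. CDH1, the E-cadherin that ties melanocytes to keratinocytes, stood at 16.3 against 4.97 CPM in D32, a ratio of 3.28 (2.86 to 3.75). It stood at 20.3 against 4.18 in D23 and 14.5 against 6.04 in D44, and rose by 1.53 ± 0.19 (edgeR adjusted p = 5.14e-05). FCRLA, an intracellular Fc receptor-like protein known from B cells and melanocytes, stood at 14.3 against 3.81 in D32 and rose by 1.38 (edgeR adjusted p = 0.000988). The matrix protein FBLN2 rose by 1.26 (edgeR adjusted p = 0.00397), EPHB1, an ephrin receptor, by 1.68, NCCRP1 by 1.40 and the coagulation factor F10 by 1.36, all between 1.71 and 7.51 CPM in PTGDS-high cells of D32. In the adhesion list CDH1 was the only gene of 26 tested that was called.

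**Figure D2:**
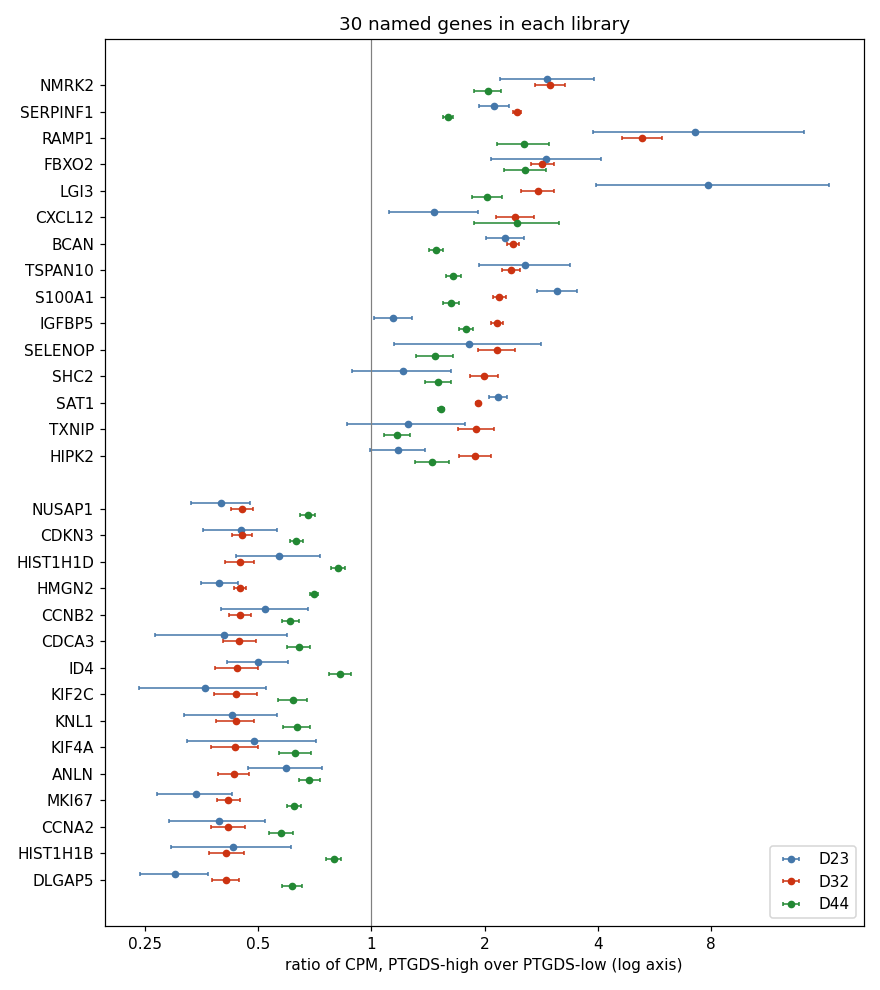
Ratio of CPM, PTGDS-high over PTGDS-low cells, of the 15 highest and 15 lowest genes of D32, on a log axis, with exact 95% conditional intervals, for D23, D32 and D44 in separate colours. Most ratios in D44 lie nearer to 1 than in D32, though not that of CXCL12; MKI67 is an example, with 0.417 in D32 and levels of 85.7 against 138 in D44.

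Genes of cell division stood lower in PTGDS-high cells. Of 54 genes of the G2 and M phase list, 49 were measured in D32, 40 were lower past 1.5 and 0 higher, with a median log2 ratio of -0.91. In the test 50 of the 54 fell and 0 rose, where 2.08% of all tested genes fell. Of the 43 S phase genes 28 were measured, 9 were lower and 0 higher, with a median of -0.51, and 17 of 43 fell in the test and 0 rose. MKI67, the proliferation antigen, stood at 41.1 against 98.5 CPM, a ratio of 0.417 (0.389 to 0.446). In D23 it stood at 26.9 against 78.9 and in D44 at 85.7 against 138, and it fell by 0.93 ± 0.12 on the log2 scale (edgeR adjusted p = 6.48e-05). PTGDS-high cells still held MKI67 RNA in every library.

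DLGAP5, a spindle assembly factor, had the lowest D32 ratio, 0.411 (0.378 to 0.446), with 28.1 against 68.3 CPM. It stood at 31.9 against 106 in D23 and 44.1 against 71.7 in D44 and fell by 1.03 ± 0.13 (edgeR adjusted p = 7.21e-05). Cyclin A2 (CCNA2) stood at 18.5 against 44.5, topoisomerase TOP2A at 45.7 against 97.6 and the kinetochore protein CENPF at 144 against 302, and these fell with edgeR adjusted p-values of 2.63e-05, 1.62e-05 and 9.67e-06. Of the S phase genes TYMS, thymidylate synthase, stood at 203 against 362 and fell (edgeR adjusted p = 0.000318), while PCNA, the sliding clamp of replication, had a ratio of 0.776 (113 against 145). All 15 of the lowest genes of D32 fell in the test, although DESeq2 did not call DLGAP5 (adjusted p = 0.561), HMGN2 (0.464) and ID4 (0.0795) among them. They were DLGAP5, HIST1H1B, CCNA2, MKI67, ANLN, KIF4A, KNL1, KIF2C, ID4, CDCA3, CCNB2, HMGN2, HIST1H1D, CDKN3 and NUSAP1.

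The 15 also hold the linker histones HIST1H1B and HIST1H1D, ID4 and HMGN2. ID4, an inhibitor of basic helix-loop-helix factors, stood at 11.3 against 25.8 CPM, a ratio of 0.440 (0.385 to 0.501), and fell by 0.52 (edgeR adjusted p = 0.00979). HMGN2, a nucleosome-binding protein, stood at 145 against 325 and fell by 0.85 (edgeR adjusted p = 0.000129). CDKN1A, the p21 inhibitor of cyclin-dependent kinases, was the 1 higher gene of the 7 measured in its list, at 39.0 against 23.8 (ratio 1.64), and did not pass (edgeR adjusted p = 0.491).

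**Figure D3:**
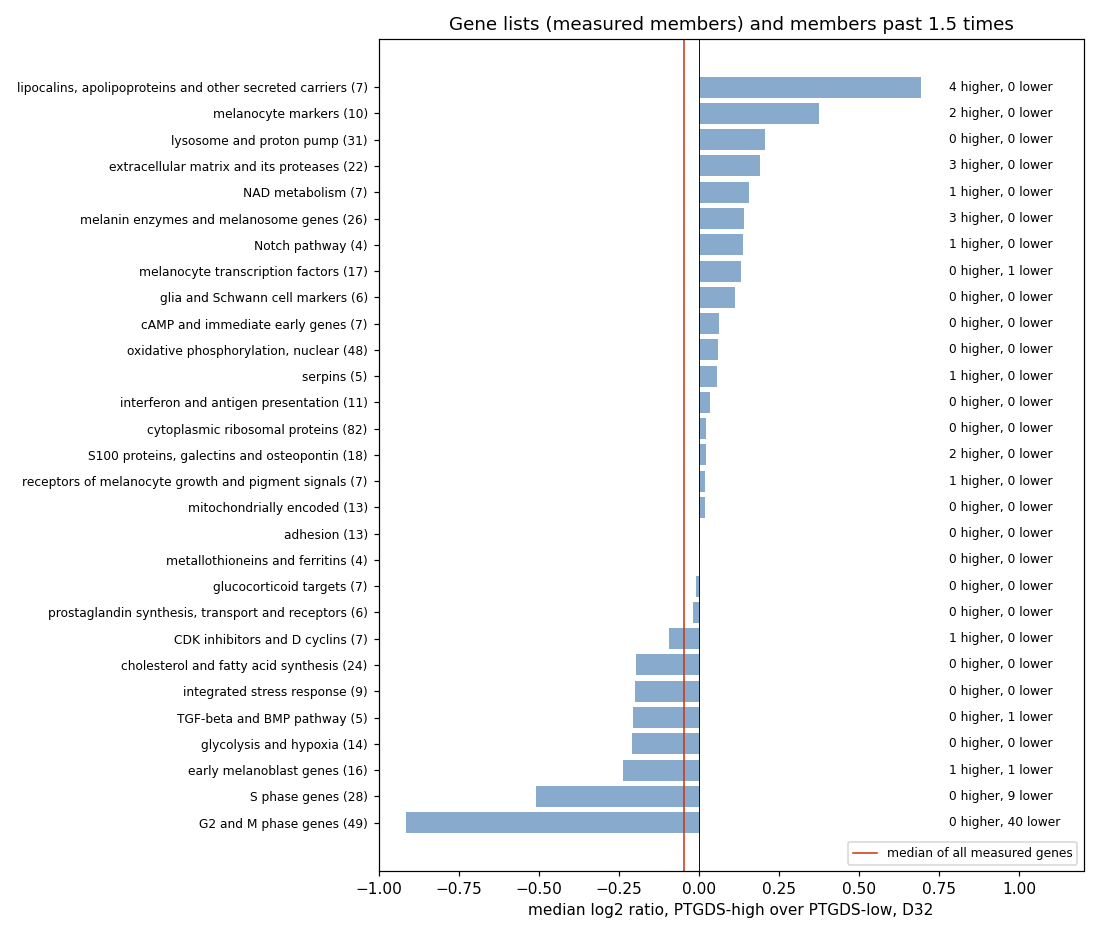
Median log2 ratio of gene lists in D32, PTGDS-high over PTGDS-low, with the number of measured genes in brackets for lists with 4 or more, and the counts past 1.5 beside the bars; the red line is the median of all measured genes. The G2 and M phase list lies lowest, at -0.91 with 40 of 49 lower, and the secreted carriers at 0.69 with 4 of 7 higher.

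Secreted carrier proteins formed the list with the highest median after the pair of given markers. The list holds lipocalins, apolipoproteins and binding proteins, PTGDS itself left out. Of 15 genes 7 were measured in D32, all 7 above 1 and 4 past 1.5, with a median log2 ratio of 0.69. Of 12 tested 6 rose and 0 fell, where 1.05% of all tested genes rose and 2.08% fell. Like the other lists, this one was written with earlier results of these data known. APOE, the lipid carrier that also takes part in melanosome fibril formation, stood at 2601 against 1495 CPM, a ratio of 1.74 (1.72 to 1.76). It stood at 1285 against 871 in D44 and rose by 0.64 ± 0.07 (edgeR adjusted p = 2.63e-05). IGFBP7 stood at 492 against 266 (0.88, edgeR adjusted p = 0.00155) and APOC1 at 30.2 against 18.7 (edgeR adjusted p = 0.00304). APOD, a lipocalin like PTGDS, stood at 19.6 against 8.76, just under the minimum of 20, and rose by 1.05 (edgeR adjusted p = 0.0256). PLTP, the phospholipid transfer protein, completed the 6 called genes with IGFBP5.

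Genes of melanin and the melanosome were slightly higher. Of 32 genes, the 4 of the pigment limit left out, 26 were measured in D32, 22 lay above 1, 3 were past 1.5 and 0 were lower, with a median log2 ratio of 0.14. Of 31 tested 6 rose and 0 fell, where 1.05% of all tested genes rose and 2.08% fell. TYR, tyrosinase, stood at 361 against 216 CPM, a ratio of 1.68 (1.63 to 1.72). It stood at 112 against 31.8 in D23 and 412 against 338 in D44, and rose by 0.85 ± 0.19 (edgeR adjusted p = 0.0148). MLPH and RAB27A, which link melanosomes to myosin at the cell edge, had ratios of 1.63 and 1.36 and rose (edgeR adjusted p of 0.0104 and 0.00187). TSPAN10, the channel TRPM1 (ratio 1.37, edgeR adjusted p = 0.00304) and the carbonic anhydrase CA14 were the others called. MITF stood at 418 against 324 and SOX10 at 95.2 against 86.5, and MITF did not pass (edgeR adjusted p = 0.949), with D23 levels of 305 against 330.

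Lysosomal genes lay above 1 for 28 of 31 measured, none past 1.5, with a median log2 ratio of 0.20. Of 35 tested 4 rose and 0 fell, among them CTSD, cathepsin D, at 570 against 429 CPM (edgeR adjusted p = 0.00631), and TFEB, a transcription factor of lysosomal genes. Of 22 measured genes of the extracellular matrix list 3 were higher, and 4 of 32 tested rose, BCAN, PLAU, LAMB2 and A2M. A2M, a protease inhibitor, stood at 313 against 191 and rose (edgeR adjusted p = 0.000116). In the S100 and galectin list S100A1, LGALS3 and LGALS3BP rose and ANXA1 fell, of 19 tested. The Notch list had 2 called of 15 tested, the receptor NOTCH3 and the target HES4. The receptor list had 1 of 18, MET, the hepatocyte growth factor receptor, at 37.6 against 23.1 (edgeR adjusted p = 0.0311). Over all 14456 tested genes 1.05% were called higher and 2.08% lower, and lists with 1 or 2 calls rest on those genes alone.

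Genes of the early melanoblast list lay mostly below 1. Of 16 measured 3 lay above 1, beside 2375 of all 5903 measured genes. In the list 1 was higher and 1 lower past 1.5, with a median log2 ratio of -0.24. In the test 7 of 18 fell and 0 rose, where 2.08% of all tested genes fell. The median was -0.13 within 3 parts by cycle gene level and -0.12 within 3 parts by the pigment sum, as taken further down. HMGA2, a chromatin protein of immature cells, stood at 29.2 against 50.5 CPM and fell by 0.68 (edgeR adjusted p = 0.000484). SOX11, STMN1, TUBB3, NES and TUBA1A had D32 ratios from 0.727 (NES) to 0.855 (TUBB3) and fell with edgeR adjusted p-values from 0.00149 to 0.0296. The seventh was CRABP1, whose D32 level was on the other side. The summed list had a ratio of 0.626 in D23, 0.889 in D32 and 0.902 in D44, and neural cells share many of its genes. Neural markers were also lower in D23, at 213 against 1344 CPM, but CRABP1 belongs to both lists. CRABP1 made up most of that neural sum in the D23 PTGDS-low cells, by its levels given further down. The part of neural markers in these calls was not tested.

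Few genes of the prostaglandin route around PTGDS were measured, so counts of these genes say little about the route. Of 27 genes of synthesis, transport and reception, PTGDS left out, 6 were measured, 0 past 1.5, with a median log2 ratio of -0.02. Over all measured genes 1.41% were higher and 2.49% lower past 1.5. Of 14 tested 1 rose, where 1.05% of all tested genes rose. It was HPGD, the enzyme that inactivates prostaglandins, at 8.68 against 3.94 CPM in D32 (edgeR adjusted p = 0.00245). HPGDS, the other prostaglandin D synthase, and PTGDR, a receptor of prostaglandin D2, had no UMI in either group. PTGS2, the inducible cyclooxygenase, stood at 0.270 against 0.469. PTGES3, a prostaglandin E synthase and HSP90 co-chaperone, had a ratio of 0.711 (350.2 against 493) and did not pass (edgeR adjusted p = 0.053).

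The lists that hold the given markers had few other called genes, where 1.05% of all tested genes were called higher. Of 24 NAD genes 7 were measured and NMRK2 alone was past 1.5, and of 20 tested 2 rose, NMRK2 and QPRT, which makes a nicotinate nucleotide (506 against 427 CPM, edgeR adjusted p = 0.0445). NAMPT, the main salvage enzyme, stood at 42.8 against 49.7. Of 17 serpins 5 were measured and SERPINF1 was the 1 past 1.5 and the 1 that rose. Retinoid handling had CRABP1 alone past 1.5 and alone called.

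Energy and ribosome lists had no gene past 1.5 and none called. The 48 nuclear genes of oxidative phosphorylation had a median log2 ratio of 0.06 and 0 called, and the 82 measured ribosomal protein genes 0.02 and 0 called. Of the glycolysis and hypoxia list 14 genes were measured with a median of -0.21, and of cholesterol and fatty acid synthesis 24 with -0.20, and neither list had a called gene. At an unadjusted p under 0.05 the edgeR test over all genes counted 1964, so an absent call in a list is no measure of equal levels.

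The levels were followed over 5 steps of PTGDS rank in D32, the lowest 30% (1685 cells), 3 steps of 20% (1124, 1124 and 1123 cells) and the top 10%. All 1685 cells of the first step and 1068 of the 1124 of the second held no PTGDS UMI. Barcode order alone parted these cells, so the likeness of the first and second steps says nothing about PTGDS. NMRK2 stood at 11.2, 11.8, 13.5, 18.2 and 34.3 CPM, SERPINF1 at 194, 203, 222, 287 and 486, and RAMP1 at 4.73, 5.01, 6.30, 8.71 and 25.4. Most of the difference thus lay between the last 2 steps. The cycle lists had medians of 45.4, 45.1, 48.9, 41.0 and 24.2 UMIs per 10000, and MKI67 stood at 103, 96.9, 114, 87.2 and 41.1 CPM, so that cycle RNA was highest in the middle step. Median UMIs per cell also peaked there, at 40061.5. TYR stood at 214, 214, 225, 265 and 361 CPM, and the pigment limit genes had medians of 81.1, 82.6, 86.2, 90.9 and 114 per 10000.

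**Figure D4:**
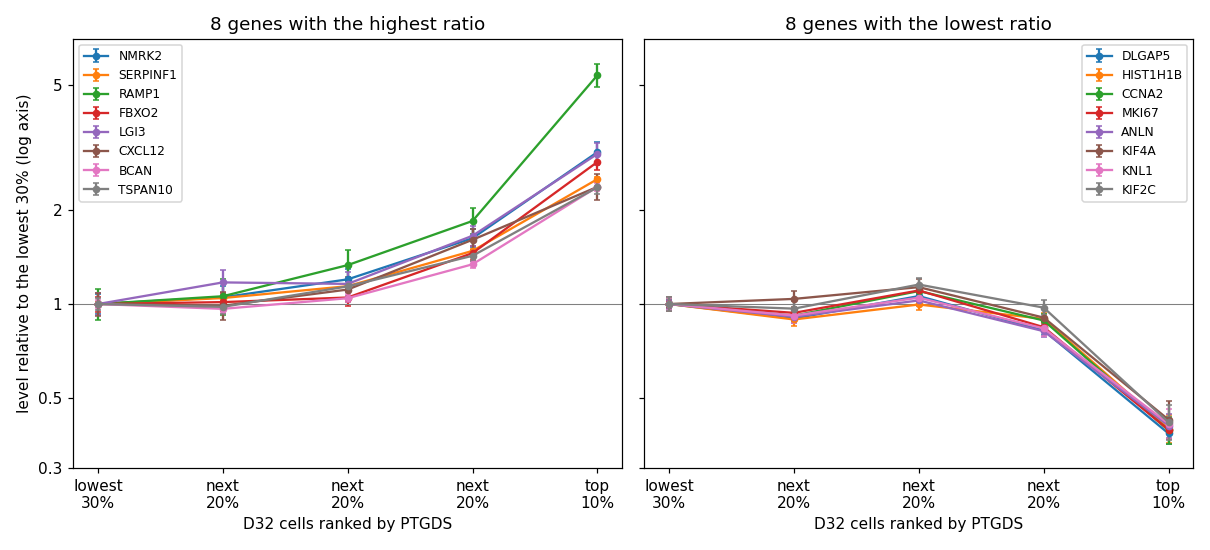
Level of named genes in 5 steps of PTGDS rank among the kept D32 cells, relative to the lowest 30%, on a log axis with exact 95% Poisson intervals; higher genes are in the first panel and division genes in the other. The curves lie near 1 in the first steps, part at the fourth and are farthest apart at the top 10%, with RAMP1 at 25.4 against 4.73 CPM and MKI67 at 41.1 against 103. Nearly all cells of the first and second steps held no PTGDS UMI and were parted by barcode order.

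The same order held inside the PTGDS-high group for some genes. When the 562 cells were parted at their median PTGDS level, RAMP1 stood at 37.4 CPM in the upper and 13.8 in the lower part, a ratio of 2.71 (2.25 to 3.28). NMRK2 stood at 41.7 against 27.1 (1.54), SERPINF1 at 580 against 395 (1.47) and MKI67 at 26.9 against 54.7 (0.491). SELENOP had 1.02 (0.85 to 1.24) and SHC2 1.07, so these genes did not follow PTGDS within the group. APOE (1.21) and TYR (1.19) differed less within the group than between the groups.

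Cell by cell, the sets of high cells overlapped in part, as far as their UMIs show. Of the 562 PTGDS-high cells, 174 (31.0%, exact 95% interval 27.2 to 35.0) were also among the top 10% of kept cells by SERPINF1, 138 (24.6%) by RAMP1, 116 (20.6%) by NMRK2 and 140 (24.9%) by TYR. Of the PTGDS-low cells 6.502%, 6.97%, 7.34% and 7.48% were in these top sets. For NMRK2 and RAMP1 only 30.8% and 31.3% of the PTGDS-high cells held a UMI at all, which limits these overlaps whatever the cells expressed. By the sum of the 4 pigment genes 146 (26.0%) were in the top 10%, against 7.19% of the PTGDS-low cells.

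The share of cells holding a UMI was counted once each cell had been thinned to 10000 UMIs, which left 562 PTGDS-high, 2747 PTGDS-low and 404 cells under the pigment limit, with 6 and 1 of the last groups left out as shallower. SERPINF1 was found in 90.4%, 63.8% and 30.0% of the cells and NMRK2 in 15.8%, 6.48% and 0.495%. BCAN was found in 74.6%, 50.0% and 1.49%. RAMP1 was found in 15.5%, 4.15% and 4.46%, and unthinned in 13.7% of the D23 cells under the pigment limit against 1.64% of the D23 PTGDS-low cells. Background from free RNA was not separated from low expression here. MKI67 was found in 14.8%, 35.8% and 34.9%. Without thinning the shares were 97.3%, 82.5% and 54.8% for SERPINF1, 30.8%, 14.2% and 1.98% for NMRK2 and 31.3%, 10.7% and 8.64% for RAMP1.

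Cycle level and pigment level differed between the groups, so the D32 ratios were also taken within 3 equal parts of the kept cells and averaged on the log2 scale, alternatives chosen after seeing the data. Within 3 parts by cycle gene level, 48 genes were higher, 47 of them among the 83, and 19 lower, 18 of them among the 147. The G2 and M phase list then had a median of -0.12 with 4 genes lower, and the S phase list -0.08 with 0, while the secreted carriers had 0.60 with 4 higher and the melanosome list 0.13 with 2. RAMP1 had 2.16, NMRK2 1.57, SERPINF1 1.10 and SAT1 0.66. ID4 and HMGN2 stood at -0.95 and -0.75, and CCNA2 stood at -0.02. Since these parts are cut on the division genes themselves, their smaller differences follow in part from the cut.

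Within 3 parts by the pigment sum, 47 genes were higher and 94 lower. The G2 and M phase list had a median of -0.81 with 33 lower, the secreted carriers 0.49 with 2 higher and the melanosome list 0.05 with 1 higher. RAMP1 had 1.77, NMRK2 1.14 and SERPINF1 0.91. In the test, PTGDS-high cells chosen within 3 parts by the pigment sum gave 94 genes higher and 161 lower, and RAMP1, NMRK2 and SERPINF1 were still called, with edgeR adjusted p-values of 0.00104, 0.0202 and 0.000172. In the kept cells of each library below the median of cycle gene level, the less cycling cells, the test gave 65 higher and 48 lower, where NMRK2 (0.71), SERPINF1 (0.75) and RAMP1 (1.71) passed and MKI67 (-0.70, edgeR adjusted p = 0.297) did not.

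**Figure D5:**
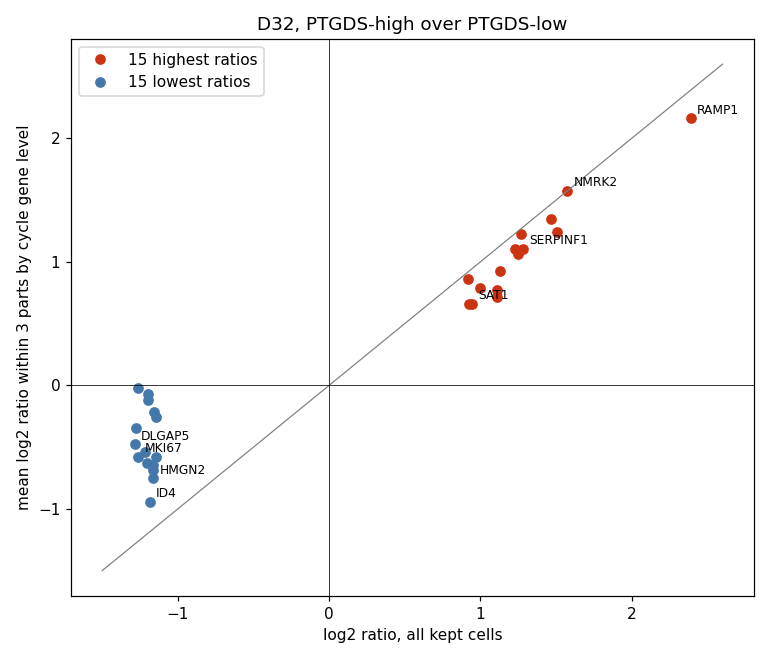
Each point is a named gene of D32, with its log2 ratio of PTGDS-high over PTGDS-low over all kept cells on the x axis and the mean log2 ratio within 3 parts by cycle gene level on the y axis. The higher genes keep most of their ratio, such as RAMP1 with 2.16, while the division genes lie closer to 0 than over all cells, such as CCNA2 with -0.02.

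A few genes differed between the libraries in direction or in size, and CRABP1, TAGLN3 and SSTR2 did so through the D23 PTGDS-low cells. TAGLN and DKK1, both under 20 CPM in D32, had D32 ratios of 1.81 and 2.33. Both fell in the test, by 0.89 and 1.38 (edgeR adjusted p of 0.0331 and 0.0277). CRABP1, a retinoic acid-binding protein of neural crest and neural cells, stood at 28.9 against 17.3 CPM in D32, 8.76 against 993 in D23 and 0.150 against 0.204 in D44, and its edgeR fold change was -6.55 ± 0.29 (adjusted p = 1.99e-11). TAGLN3, a neuronal calponin relative, stood at 0.626 against 38.6 in D23 and 0.720 against 0.967 in D32, and SSTR2, a somatostatin receptor, at 0.626 against 20.0 in D23 and 0.315 against 0.335 in D32. TAGLN3 and SSTR2 fell in the test by 3.63 and 2.76 (edgeR), but SSTR2 stood at 0.225 against 0.108 in D44, so these differences were those of 1 library. Of the 15 neural and neural crest markers summed above, DCX and PAX6 were at 0 in the PTGDS-high cells of D23, and the sum was 116 against 126 in D44. The D23 pigment limit genes had medians of 48.1 against 24.3 per 10000. The part of neural marker RNA in the calls that rest on D23 was not tested beyond a pigment limit of 30, chosen after seeing the data, under which 209 genes were called higher and 295 lower.

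HOXB2 stood at 5.01 against 25.9 CPM in D23 and 7.55 against 8.73 in D32 and fell by 0.95 (edgeR adjusted p = 0.0208), a call lost at the pigment limit of 30 with an edgeR adjusted p of 0.181. MMP1, an interstitial collagenase, stood at 3.03 against 9.09 in D44 and 1.35 against 2.47 in D32 and fell by 1.53 (edgeR adjusted p = 0.00159). NTF3, neurotrophin 3, stood at 3.33 against 5.16 in D32 and fell by 1.18. The other genes with the largest falls, SAPCD2, CDC25C, NEK2 and UBE2C, serve mitosis or spindle orientation, and UBE2C stood at 98.4 against 192 in D32.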

How the data were processed

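For each library the authors deposited whole-number UMI counts by barcode over 36601 genes, without normalization, made with Cell Ranger 6.1.2 on hg38 per the submitters' processing notes. The annotation release is not given in the sources used here. D23 held 53298735 UMIs, D32 268339312 and D44 280879346.

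Cells were filtered with the study's limits and grouped as described. The PTGDS-high cells and the gene lists were chosen with earlier results of these data known. Cells of 1 library are not replicates, so UMIs were summed by group. D32 was compared by size. D23 and D44 were tested with edgeR 4.0.16 (limma 3.58.1, R 4.3.3, TMM, filterByExpr, quasi-likelihood, library as a block, Benjamini-Hochberg), checked on simulated data. Both groups of a library were captured together, which pairs them, and cultures were not replicated. The p-values thus rest on 2 libraries and on a spread that edgeR estimates partly across genes. A call does not require that both libraries moved alike, as CRABP1, TAGLN3 and SSTR2 show. A library with 3 UMIs or fewer in both groups gave no ratio.

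Named were NMRK2 and SERPINF1, the 15 genes with the highest and the 15 with the lowest D32 ratio at 20 CPM or more, the 10 called genes with the largest fold change each way that lay on the same side in D32, and members of 35 gene lists. PTGDS, the pigment limit genes, mitochondrial genes, genes of chromosome Y and others that mark sex, and clone names were left out. Doublets were called with Scrublet in Scanpy 1.11.5 (Python 3.11.15) at the expected share, since its automatic threshold marked 0.0537% of D23, 36.2% of D32 and 0% of D44 cells, and were kept except in 1 alternative. Promoter windows came from RefSeq on GRCh38.p14, where 40 of 53 names searched matched. Alternatives covered depth, thinning, pigment, cycling, group size, scaling, filters and DESeq2 1.42.0.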

Additional observations from a re-analysis of the deposited data

Results flagged for a closer look

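Among the named and listed genes measured in D32 and past a ratio of 1.5 there, CRABP1 was the 1 whose ratio lay past 1.5 in the opposite direction in another library. Its log2 ratio of PTGDS-high over PTGDS-low was 0.74 in D32 and -6.83 in D23, and the difference between the libraries was not tested.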

How the results depend on the processing

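Of the counts, those in D32 (83 higher, 147 lower) became 150 and 264 for the top 5% of cells, 31 and 29 for the top 20%, 34 and 76 at a minimum of 50 CPM, 2696 and 1554 with no minimum, 47 and 94 within 3 parts by the pigment sum and 48 and 19 within 3 parts by cycle genes, the last 2 chosen after seeing the data. The lower genes numbered 80 when cells were chosen within 3 parts by the pigment sum and 53 in the less cycling cells. Thinning, 5 parts by depth, a pigment limit of 30, doublets left out, the lowest 30% as low group, means of cells, PTGDS left out of the totals and TMM kept both counts within 1.5 times. The test (152 higher, 301 lower) gave 46 and 98 by DESeq2, 552 lower with no filter, 995 and 1266 over all 3 libraries, 1362 and 1347 over D32 and D44, 65 and 48 in the less cycling cells and 94 and 161 within 3 parts by the pigment sum. Fits with D32 use the cells that chose the group. The replicate block is the library: without it 0 and 0 genes were called by edgeR, with 35 at an unadjusted p under 0.05. DESeq2 with the block counted 730 at that level, and it called 24 and lost 20 of the named genes for which it gave an adjusted p.

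Direction turned for CCNA2 in D32 (log2 0.15) and for ANLN (0.050) and KIF2C (0.11) in the test in the less cycling cells, and for SSTR2 over D32 and D44 (0.39) and without D23 (1.05, against -5.00 without D44). Leaving out D23 or D44 leaves 1 library and no test, only the ratio of the other. SSTR2, TAGLN3 and HOXB2 rest on D23, with log2 ratios of -0.13 for TAGLN3 and -0.48 for HOXB2 in D44 alone. The cause of these changes was not tested. Intervals cover counting error only, and low genes such as RAMP1 and PLAU are limited by depth.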
